A study of Mus musculus with 14 samples.

Results

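The genes described here are 35 targets and effectors of the hypoxia response, taken by symbol from a fixed list. The genes were chosen with earlier results of these data known. They comprise 18 genes of glycolysis (2 transporters, 13 enzymes of the core pathway and 3 genes that set its flux or the fate of pyruvate), 15 other targets of the hypoxia-inducible factors (HIF), and the 2 HIF alpha subunits Hif1a and Epas1. All 35 were among the 50600 genes of the bulk table and the 32285 genes of the stromal single-cell tables. The progenitor single-cell table lists 11992 genes and held 33 of the 35, with no row for Adm or Epas1.

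Cells sense oxygen through prolyl hydroxylases, which mark the HIF alpha subunits for destruction when oxygen is present. When oxygen falls, the stabilised subunit pairs with Arnt and binds a short core motif, the hypoxia response element, near genes that raise glucose uptake and glycolysis, lower mitochondrial respiration, remodel collagen and feed back on oxygen sensing. Bone marrow is a tissue of low oxygen, and glycolytic metabolism is a known feature of its stem cells and stroma.

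The series asks how marrow cells differ when a breast tumour grows elsewhere in the body. Mesenchymal stem cells (MSC) were profiled in bulk, in 4 libraries from tumour-free mice and 4 from mice bearing tumours of Py230, a mammary tumour line that came from a PyMT mouse. PyMT mice carry the polyoma middle T oncogene, which drives mammary tumours. Single-cell profiles of marrow stroma come from 1 library of a wild-type (WT) and 1 of a PyMT mouse, and those of hematopoietic stem and progenitor cells (HSPC) from 2 WT and 2 PyMT mice. The labels give no strain, age, sex, tumour stage or sorting gate. The PyMT groups carry the transgene in their own germline and the Py230 group received a transplanted line, so the tumour models of the bulk and single-cell data differ. The genotype labels were used for HSPC, although the titles of all 4 HSPC libraries begin with PyMT.

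Bulk libraries held 4301375 to 9811251 counted reads, stromal libraries 10222176 and 15542745 unique molecular identifiers (UMIs) in the cells kept, and HSPC libraries 16365550 to 28570481 UMIs. No label ties a bulk library to an animal of its own; bulk p-values therefore measure only how far these 8 libraries spread, and that spread may be technical. The marker genes of LepR+ mesenchymal cells were all present in bulk, but their summed level was lower in the Py230 libraries (16700 to 19110 CPM, reads scaled to a common library total) than in the tumour-free ones (28160 to 30530 CPM). Sums of 8 fibroblast markers (789 to 1017 against 654 to 778 CPM), 8 sinusoidal endothelial markers (57.9 to 112 against 36.8 to 51.7 CPM) and 8 monocyte and macrophage markers (73.0 to 106 against 46.9 to 58.6 CPM) were higher in the Py230 libraries, without overlap. So were those of 8 tendon or periosteal markers (190.5 to 554.5 against 69.9 to 179.8 CPM), 6 megakaryocyte markers (14.4 to 22.3 against 10.2 to 12.9 CPM) and 14 immediate-early genes (36540 to 39730 against 35580 to 36080 CPM). None of these markers was at 0 over the 8 libraries. The part of these differences in the results below was not tested, and in bulk RNA fewer cells of a type and less RNA per cell cannot be told apart. Among HSPC, PyMT mouse 2 was the shallowest, with a median of 4257 UMIs per cell against 6643.5 to 7149 in the other mice.

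The core of the hypoxia response element was looked for as ACGTG or GCGTG on either strand in RefSeq promoter windows of 300 bases (250 before and 50 after a gene start, GRCm38.p6). Of 32851 windows, 43.8% held at least 1 match, and of 27025 gene symbols 46.7% did in any window. The table had entries for 30 of the 35 genes, and 28 of these held a match. The share was 16 of 18 for glycolysis genes and 11 of 11 for the other targets with an entry. The promoters printed are the 2 of each group with the smallest bulk p among genes that have an entry with a match: Pkm and Pfkl for glycolysis, Ddit4 and P4ha1 for the other targets. Each is the 250 bases before the start, read 5′ to 3′ in the direction of the gene, with matches in capitals; a capital run of CACGT is the motif read on the other strand.

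Pkm promoter, chr9:59656977-59657226, plus strand, 1 match that begins 75 bases before the start: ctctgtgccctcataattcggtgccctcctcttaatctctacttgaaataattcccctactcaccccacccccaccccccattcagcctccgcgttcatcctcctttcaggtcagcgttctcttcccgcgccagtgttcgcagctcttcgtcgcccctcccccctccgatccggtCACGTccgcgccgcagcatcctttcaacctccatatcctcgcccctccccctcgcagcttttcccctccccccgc
Pfkl promoter, chr10:78009808-78010057, minus strand, 1 match 99 bases before the start: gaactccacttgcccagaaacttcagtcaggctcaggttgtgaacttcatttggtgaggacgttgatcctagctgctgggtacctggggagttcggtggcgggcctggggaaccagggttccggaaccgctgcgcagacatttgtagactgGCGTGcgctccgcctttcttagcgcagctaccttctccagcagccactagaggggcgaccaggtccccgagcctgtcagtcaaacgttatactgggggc
Ddit4 promoter, chr10:59951771-59952020, minus strand, 2 matches, 187 and 115 bases before the start: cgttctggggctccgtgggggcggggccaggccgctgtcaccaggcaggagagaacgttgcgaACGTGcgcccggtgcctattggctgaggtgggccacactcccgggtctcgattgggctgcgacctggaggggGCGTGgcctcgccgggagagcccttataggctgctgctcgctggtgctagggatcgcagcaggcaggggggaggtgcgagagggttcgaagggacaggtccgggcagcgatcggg
P4ha1 promoter, chr10:59323046-59323295, plus strand, 3 matches, 163, 126 and 16 bases before the start: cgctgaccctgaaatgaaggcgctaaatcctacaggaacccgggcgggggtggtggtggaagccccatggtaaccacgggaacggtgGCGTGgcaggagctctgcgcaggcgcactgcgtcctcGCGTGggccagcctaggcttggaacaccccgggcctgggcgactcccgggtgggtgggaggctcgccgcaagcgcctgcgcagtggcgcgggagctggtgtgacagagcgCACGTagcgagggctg

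These matches describe the letters of the windows and say nothing of binding in these cells. P4ha1 held the most matches of the 4 printed stretches. The Pkm window had a second match after the start, outside the printed bases, and Pkm has 2 start windows in the table.

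In bulk MSC, 8 of the 35 genes were higher in the Py230 libraries and 0 were lower (edgeR quasi-likelihood test, Benjamini-Hochberg adjusted p under 0.05). Of the 16317 genes tested, 1.99% were called higher and 2.74% lower, and all 35 members passed the filter on low counts. The 8 were the repressors Bhlhe40 and Mxi1, the stress gene Ddit4, the collagen hydroxylase P4ha1, the glycolysis enzymes Pkm, Pfkl and Tpi1, and the HIF alpha subunit Epas1. At an unadjusted p under 0.05, edgeR had 18 members higher and 1 lower, beside 1344 higher and 1292 lower of all 16317 genes. After adjustment, DESeq2 called 11 members higher and 1 lower, beside 404 higher and 546 lower of 44486 genes fitted. For 10 members every Py230 library lay above every tumour-free one, and for 0 members below; of all genes, 5.36% and 5.61% did so.

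Neither transporter passed the test. Slc2a1, the basal glucose transporter, was at 44.8, 61.4, 51.5 and 49.98 CPM in tumour-free replicates 1 to 4 and at 53.2, 52.2, 46.9 and 41.5 CPM in Py230 replicates 1 to 4. These ranges overlapped almost fully (log2 difference -0.10 ± 0.12 SE, edgeR adjusted p = 0.801). Slc16a3, which exports lactate, had a mean of 4.03 ± 0.923 CPM (SD, n = 4) in tumour-free and 6.61 ± 2.24 CPM (SD, n = 4) in Py230 libraries, and its ranges overlapped too (edgeR adjusted p = 0.299).

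Of the 13 core enzymes, 3 rose and 10 did not pass. Pkm makes pyruvate in the last step of the pathway. It measured 56.9, 65.5, 51.4 and 46.9 CPM in the tumour-free libraries and 93.1, 83.3, 79.0 and 68.9 CPM in the Py230 libraries. Every Py230 library was above every tumour-free one (1.47-fold, log2 0.56 ± 0.12 SE, edgeR adjusted p = 0.0190). Pfkl, the liver-type phosphofructokinase of the committed step, measured 77.5, 87.7, 67.9 and 87.3 CPM without and 151, 115, 119 and 91.1 CPM with a Py230 tumour. The groups did not overlap, with replicate 4 of the Py230 group closest to the controls (1.49-fold, log2 0.57 ± 0.14 SE, edgeR adjusted p = 0.0332). Tpi1, which interconverts the 2 triose phosphates, measured 57.9, 57.6, 45.6 and 51.9 CPM against 97.7, 82.8, 90.9 and 54.4 CPM. Here Py230 replicate 4 lay within the tumour-free range and the other 3 above it (1.54-fold, log2 0.62 ± 0.16 SE, edgeR adjusted p = 0.0395).

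The other 10 core enzymes had log2 differences from -0.35 (Hk2) to 0.35 (Gpi1). The other phosphofructokinase genes did not follow Pfkl past the threshold: Pfkp was at 52.3 ± 5.42 and 63.5 ± 11.7 CPM (SD, n = 4 each), and the muscle form Pfkm at 17.0 ± 1.29 and 14.3 ± 2.24 CPM. Gapdh, often used as a reference gene, was at 108 ± 15.8 and 116 ± 13.4 CPM, a difference within the spread of each group. Eno1 was at 41.2 ± 3.79 and 42.5 ± 9.36 CPM, and Aldoa at 127 ± 16.5 and 145 ± 25.0 CPM. The 2 hexokinases that start the pathway lay on opposite sides of 0, Hk1 at a log2 difference of 0.18 and Hk2 at -0.35, neither past the threshold. The near copy Eno1b held at most 0.872 CPM and Pgk1-rs7 at most 0.166 CPM in any bulk library, so few reads were assigned to these copies of Eno1 and Pgk1.

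The 3 genes at the branch points of the pathway did not pass the test either. Ldha, which turns pyruvate into lactate, measured 279, 253, 246 and 202 CPM in the tumour-free and 186, 208, 199 and 143 CPM in the Py230 libraries. Its level was lower in 3 of 4 Py230 libraries than in any control (log2 -0.41 ± 0.13 SE, edgeR adjusted p = 0.0986), and DESeq2 called it lower (adjusted p = 0.0359). Pdk1, the kinase that blocks pyruvate from entering mitochondria, was at 9.37 ± 2.32 and 14.9 ± 4.08 CPM (SD, n = 4 each; edgeR adjusted p = 0.173). Pfkfb3, which makes the activator of phosphofructokinase, was at 116 ± 9.88 and 142 ± 14.0 CPM (edgeR adjusted p = 0.132).

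Among the other HIF targets 4 of 15 rose and 0 fell, and the 2 transcriptional repressors were both among them. Bhlhe40, a basic helix-loop-helix repressor at chr6:108660629-108666925 (GRCm38), measured 136, 150.4, 195 and 145 CPM in the tumour-free and 341, 309.8, 299 and 308 CPM in the Py230 libraries. The lowest Py230 library was well above the highest control, tumour-free replicate 3 (log2 1.003 ± 0.12 SE, edgeR adjusted p = 0.000308). Mxi1, a Myc antagonist, measured 77.8, 91.8, 122 and 99.5 CPM against 174, 149, 140.4 and 119 CPM. Tumour-free replicate 3 and Py230 replicate 4 overlapped by a narrow margin (log2 0.57 ± 0.14 SE, edgeR adjusted p = 0.0368).

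Of the growth and stress targets, Ddit4 passed. Ddit4 restrains mTOR signalling under stress and measured 41.9, 28.6, 44.3 and 29.1 CPM in the tumour-free libraries against 100.5, 80.3, 63.9 and 63.0 CPM in the Py230 libraries. The groups were separate, with Py230 replicate 1 the highest (log2 1.09 ± 0.18 SE, edgeR adjusted p = 0.00458). Ndrg1, a hypoxia-induced growth arrest gene, measured 111, 128, 155 and 122 CPM against 175, 164, 171 and 166 CPM. All 4 Py230 libraries were above all controls, but the edgeR adjusted p missed the threshold (log2 0.39 ± 0.11 SE, edgeR adjusted p = 0.0526). DESeq2 called Ndrg1 higher (DESeq2 adjusted p = 0.0264). Adm, which encodes the vasodilator peptide adrenomedullin, measured 48.8, 24.5, 32.8 and 25.9 CPM against 174, 75.4, 48.6 and 40.3 CPM, so that Py230 replicate 1 alone was far above the rest (edgeR adjusted p = 0.266).

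The collagen hydroxylases did not move as a set. P4ha1, a catalytic subunit of collagen prolyl 4-hydroxylase, measured 102, 101, 97.9 and 110.0 CPM in the tumour-free and 172, 169, 158 and 126 CPM in the Py230 libraries. The controls were tight and every Py230 library was above them (log2 0.61 ± 0.11 SE, edgeR adjusted p = 0.00482). Its paralog P4ha2 was at 32.5 ± 3.38 and 27.1 ± 2.10 CPM (SD, n = 4 each; log2 -0.26 ± 0.12 SE, edgeR adjusted p = 0.315). Plod2, a collagen lysyl hydroxylase, spread widely in both groups, at 264 ± 85.6 and 388 ± 106 CPM (edgeR adjusted p = 0.347).

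The mitochondrial targets and the oxygen sensors gave no call with edgeR. DESeq2 called Bnip3 and Ankrd37 of these higher (DESeq2 adjusted p = 0.000327 and 0.0413). Bnip3, a mitophagy receptor, measured 17.9, 14.8, 15.4 and 14.7 CPM in the tumour-free and 81.3, 29.0, 31.3 and 25.8 CPM in the Py230 libraries. All Py230 libraries were above all controls, and replicate 1 stood far above the other 3 (log2 1.39 ± 0.36 SE, edgeR adjusted p = 0.0660). Without that library the adjusted p was 0.00592. Its relative Bnip3l was at 56.4 ± 6.37 and 66.2 ± 4.93 CPM, and Higd1a, a respiratory chain factor, at 17.9 ± 5.58 and 19.0 ± 1.03 CPM (SD, n = 4 each). Ankrd37 measured 1.30, 2.99, 1.77 and 3.20 CPM against 8.62, 7.31, 4.53 and 4.08 CPM, separate groups at a low level (log2 1.41 ± 0.40 SE, edgeR adjusted p = 0.0612). Egln1, the main HIF prolyl hydroxylase, was at 42.2 ± 6.73 and 36.1 ± 3.44 CPM, and the histone demethylase Kdm3a at 75.8 ± 14.8 and 103 ± 10.9 CPM (edgeR adjusted p = 0.475 and 0.0913). Egln3, an inducible hydroxylase, lay between 1.02 and 13.4 CPM, with Py230 replicate 1 at the top.

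Of the 2 HIF alpha subunits, Epas1 passed the test and Hif1a did not. Epas1, also named HIF-2 alpha, was the most abundant member and measured 1935, 2114, 1902.5 and 1937 CPM in the tumour-free libraries against 2287, 3144.5, 3207 and 2754 CPM in the Py230 libraries. Epas1 lies at chr17:86753700-86833410 (GRCm38). All Py230 libraries were above all controls (1.44-fold, log2 0.53 ± 0.12 SE, edgeR adjusted p = 0.0214). Hif1a was at 192 ± 11.2 and 195 ± 25.9 CPM (SD, n = 4 each; log2 0.02 ± 0.11 SE, edgeR adjusted p = 0.970). The difference between the 2 subunits' changes was not tested. HIF activity is set mainly by the stability of the protein, which RNA does not measure.

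**Figure D1:**
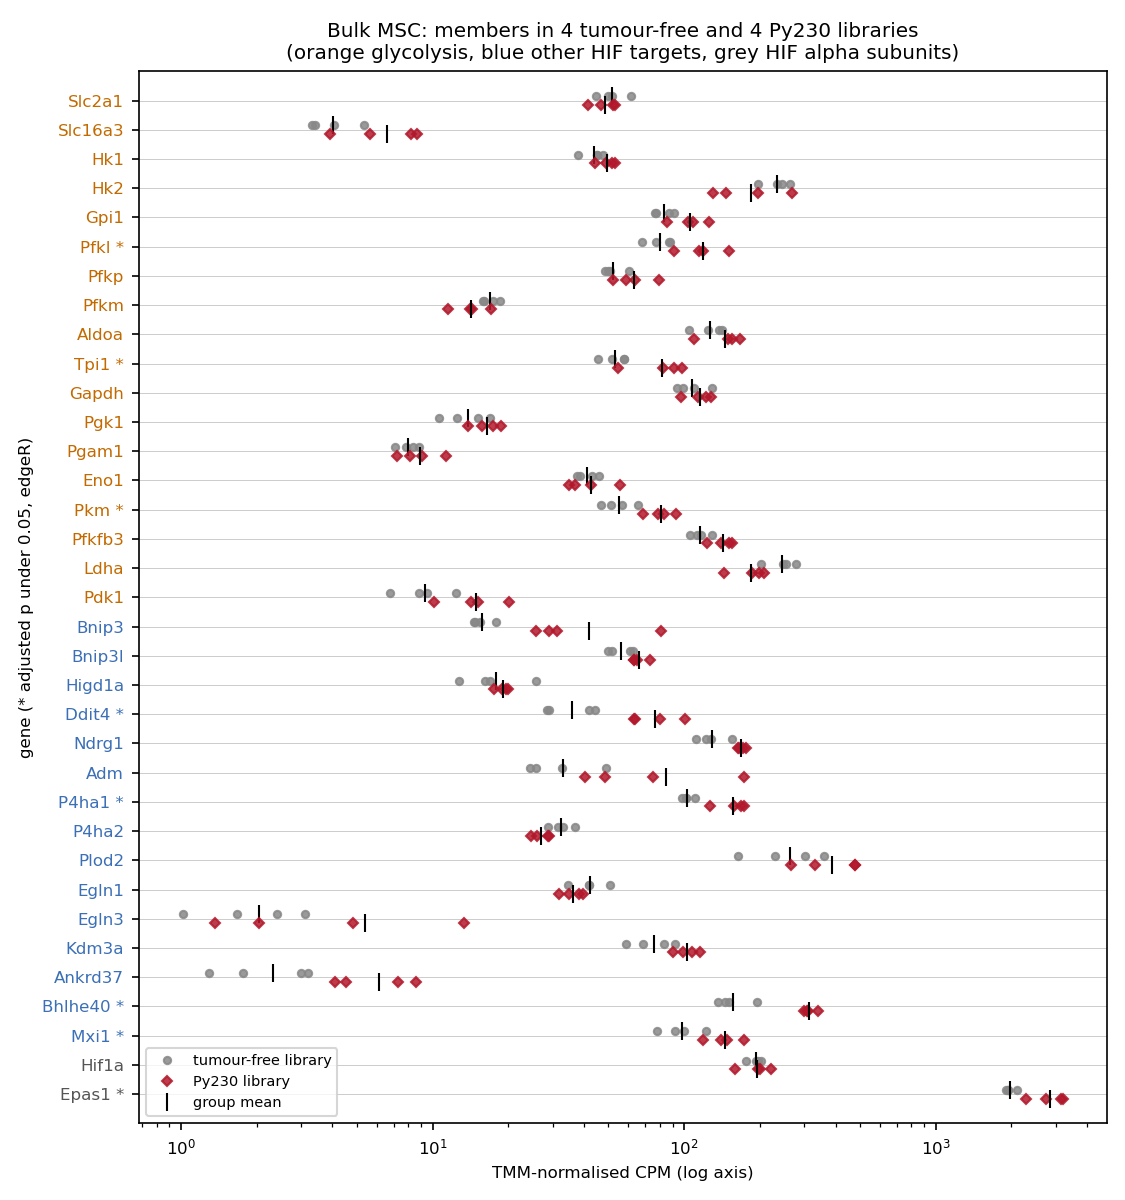
TMM-normalised CPM of the 35 genes (log axis) in the 4 tumour-free (grey circles) and 4 Py230 libraries (red diamonds), with bars at group means and an asterisk at adjusted p under 0.05. The groups are separate for Bhlhe40 (136 to 195 against 299 to 341 CPM), while Gapdh and Hif1a overlap, and Py230 replicate 1 stands out for Bnip3 at 81.3 CPM.

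Set side by side, the glycolysis genes and the other HIF targets had different medians. The median log2 difference was 0.22 over 18 glycolysis genes, of which 3 rose and 0 fell, and 0.57 over 15 other targets, of which 4 rose and 0 fell, beside 0.04 over all genes tested. Above 0 lay 14 of 18 and 13 of 15, against 54.8% of all genes. DESeq2 called 3 glycolysis genes higher and 1 lower, and 7 other targets higher and 0 lower. Of the 44486 genes it fitted, 404 were called higher and 546 lower. The order of the 2 medians held in 14 of 14 alternatives. The ranges were 0.16 to 0.28 for glycolysis and 0.47 to 0.66 for the other targets. These are descriptions of 2 lists, and no test compared them.

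Per kilobase of annotated exon in GENCODE, levels in the tumour-free libraries ran over a wide range. Epas1 led with 353 CPM per kb, followed by Ldha at 74.0, Plod2 at 49.0, Aldoa at 43.6, Hk2 at 39.4, Bhlhe40 at 33.3, Hif1a at 32.6 and Gapdh at 26.1 CPM per kb. The lowest were Slc16a3 at 0.758, Egln3 at 0.770 and Pdk1 at 1.20 CPM per kb. Of the paired isoenzymes, Hk2 exceeded Hk1 (5.14 CPM per kb) and Pfkl (12.0 CPM per kb) exceeded Pfkm (5.08) and Pfkp (3.91 CPM per kb), so Hk2 and Pfkl were the more abundant forms in these MSC.

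Among 74 further genes of the same pathways, 67 could be tested in bulk, and 3 were higher and 1 lower. Of all 16317 genes tested, 1.99% were called higher and 2.74% lower. At an unadjusted p under 0.05, edgeR had 12 of the 67 higher and 10 lower. The 26 other hypoxia-induced genes gave 9 of these higher and 3 of these lower. DESeq2 called 3 higher and 2 lower of 74. Of 26 other hypoxia-induced genes, 3 rose, among them the angiogenic factor Vegfa (920 ± 95.1 to 1703 ± 369 CPM, log2 0.89 ± 0.15 SE, edgeR adjusted p = 0.00400) and Insig2, which restrains sterol synthesis (67.7 ± 3.81 to 102 ± 8.94 CPM, edgeR adjusted p = 0.00299). Of 12 genes of pyruvate entry into mitochondria, 1 fell, the phosphatase subunit Pdp2 that reverses the action of pyruvate dehydrogenase kinases (34.0 ± 3.23 to 20.5 ± 2.57 CPM, edgeR adjusted p = 0.00584). Of 16 other glycolysis and glycogen genes and 13 HIF pathway regulators, edgeR called 0 in either direction, with 1 and 5 genes at an unadjusted p under 0.05, and DESeq2 called 0 of either list.

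Bhlhe40, Ddit4 and P4ha1 stayed called in all 14 alternatives, which include leaving out each library. Pkm, Pfkl, Tpi1, Mxi1 and Epas1 lost their call when single libraries were left out, and the number of members called higher fell to 3 without Py230 replicate 2 or without tumour-free replicate 1, to 4 without Py230 replicate 3 or tumour-free replicate 2, and to 5 without Py230 replicate 1 or tumour-free replicate 3. It was also 3 without tumour-free replicate 1 and Py230 replicate 3, the libraries with the fewest genes detected (25088 and 21009).

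In the stromal single-cell data, which hold 1 library per genotype and allow no test, ratios of summed UMIs were taken within the authors' clusters. Cluster 0 was the LepR+ mesenchymal-like cluster (977 WT and 2242 PyMT cells), with 31449 and 29086 CPM for 8 LepR+ mesenchymal markers. Cluster 1 is called by its leading genes the Fmod+ Chad+ cells (441 and 367 cells), and cluster 2 was fibroblast-like (559 and 346 cells). Intervals are 95% exact intervals and cover counting error only, not the difference between mice. A member counts as past the fold at 1.5-fold or more with at least 20 UMIs over both libraries.

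In LepR+ cells, 34 of the 35 genes had enough UMIs, 7 were past 1.5-fold higher in the PyMT library and 0 lower, where 12.1% of 12617 genes were past it higher and 7.43% lower. The 7 were Bhlhe40, Ddit4, Plod2, Adm, Ankrd37 and Egln3 of the other targets and Pfkm of glycolysis. Bhlhe40 measured 70.2 CPM in WT against 178 CPM in PyMT cells (log2 ratio of PyMT over WT 1.34, interval 1.15 to 1.54). Ddit4 was at 99.1 and 240.3 CPM (1.28, 1.12 to 1.44), Plod2 at 106 and 247 CPM (1.22, 1.07 to 1.38) and Adm at 48.3 and 109 CPM (1.18, 0.95 to 1.41). Egln3 had 0 UMIs in the WT and 20 in the PyMT library. It met the minimum of 20 UMIs through the PyMT library alone, so nothing is read from its place among the 7, which are 6 without it. Its 20 UMIs are at least 2.36-fold higher than a floor of 3 counts in the WT library, and the exact interval, which also covers the counting error of the 20 UMIs, begins at log2 0.80. The intervals of Bhlhe40, Ddit4, Plod2 and Adm lay wholly above 0. Ankrd37 (20 and 90 UMIs) and Pfkm (9 and 54 UMIs) rest on few counts.

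Of 17 glycolysis genes counted in LepR+ cells, 15 lay above 0 with a median log2 ratio of 0.36, and 10 had an interval wholly above 0. Gapdh was at 178 and 256 CPM (0.52, 0.40 to 0.65), Ldha at 228 and 293 CPM (0.36, 0.25 to 0.47), Pfkl at 29.2 and 42.3 CPM (0.54, 0.23 to 0.85) and Tpi1 at 122 and 158 CPM (0.38, 0.23 to 0.53). Eno1, which makes phosphoenolpyruvate, went the other way, from 41.0 to 30.6 CPM (-0.43, -0.71 to -0.14), and Hk2 was at 198 and 183 CPM (-0.12, -0.24 to 0.01). The 15 other targets had a median of 0.28, and 0.28 with Egln3 at its lower bound, while all genes had a median of 0.08. The order of the 2 group medians was glycolysis above other targets here, but it turned with cells thinned to 1500 UMIs (0.35 and 0.36) and with means of per-cell CPM (0.31 and 0.39).

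Both HIF alpha subunits were higher in the PyMT LepR+ cells. Epas1 was at 724 and 1041 CPM (0.52, 0.46 to 0.59) and Hif1a at 122 and 165 CPM (0.43, 0.28 to 0.58). Neither reached 1.5-fold. P4ha1 (116 and 138 CPM; 0.26, 0.10 to 0.42), Ndrg1 (43.2 and 61.8 CPM; 0.52, 0.26 to 0.78) and Bnip3l (112 and 136 CPM; 0.28, 0.12 to 0.44) lay above 0 within smaller margins. Higd1a lay below 0 (62.1 and 52.3 CPM; -0.25, -0.47 to -0.02).

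In the Fmod+ Chad+ cells 8 of 35 were past 1.5-fold higher and 2 lower (17.3% and 5.65% of 10207 genes). In the fibroblast-like cells 5 of 34 were higher and 3 lower (11.2% and 5.93% of 10680 genes). The summed level of 8 LepR+ mesenchymal marker genes moved with these results, from 972 CPM in WT to 1799.5 CPM in PyMT Fmod+ Chad+ cells and from 1215 to 1558 CPM in fibroblast-like cells, and LepR+ cells were 44.6% of the WT and 70.3% of the PyMT cells. The part of this shift in the results was not tested. Bhlhe40 was higher in both, at 211 and 408 CPM (0.95, 0.78 to 1.12) in the first and 162 and 306 CPM (0.92, 0.75 to 1.09) in the second. Ddit4 was higher in both as well, from 19.2 to 59.1 CPM (1.62, 1.09 to 2.17) and from 14.3 to 27.0 CPM (0.92, 0.33 to 1.51). Adm followed with log2 ratios of 0.84 (0.34 to 1.34) and 0.60 (0.31 to 0.89). Epas1 was past 1.5-fold higher in both at a low level, at 30.2 and 70.2 CPM (1.22, 0.78 to 1.67) on 66 and 126 UMIs in the first and 26.1 and 41.4 CPM (0.67, 0.22 to 1.11) on 86 UMIs in each library in the second.

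The glycolysis genes did not shift as a list in these 2 clusters. Their median log2 ratio was 0.06 over 18 genes in the Fmod+ Chad+ cells and -0.07 over 17 genes in the fibroblast-like cells, beside 0.16 and 0.08 over all genes. The other targets had medians of 0.22 and 0.19. Gapdh was at 419 and 389 CPM (-0.11, -0.25 to 0.04) in the first cluster and at 335 and 306 CPM (-0.13, -0.28 to 0.01) in the second. Eno1 was lower in both, from 124 to 85.2 CPM (-0.55, -0.84 to -0.25) and from 88.7 to 49.1 CPM (-0.85, -1.19 to -0.52). In the fibroblast-like cells Eno1 was the 1 glycolysis gene past the fold. In the Fmod+ Chad+ cells Slc2a1, Pfkm and Pdk1 were past it higher and Pfkfb3 lower, each with at most 31 UMIs in a library.

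The collagen hydroxylases split by cluster. P4ha1 lay higher in PyMT than WT LepR+ cells, but lower in the Fmod+ Chad+ cells (228 and 169.9 CPM; -0.43, -0.64 to -0.22) and in the fibroblast-like cells (170.02 and 124 CPM; -0.46, -0.68 to -0.24). P4ha2 lay lower in both of the latter, short of 1.5-fold (53.5 and 36.2 CPM; 65.3 and 44.8 CPM). Plod2 was higher in LepR+ and fibroblast-like cells (99.9 and 168 CPM in the latter; 0.75, 0.53 to 0.97) and near level in the Fmod+ Chad+ cells (385 and 342 CPM; -0.17, -0.32 to -0.02). Higd1a was past 1.5-fold lower in the Fmod+ Chad+ cells (208 and 127 CPM) and in the fibroblast-like cells (93.8 and 60.7 CPM).

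**Figure D2:**
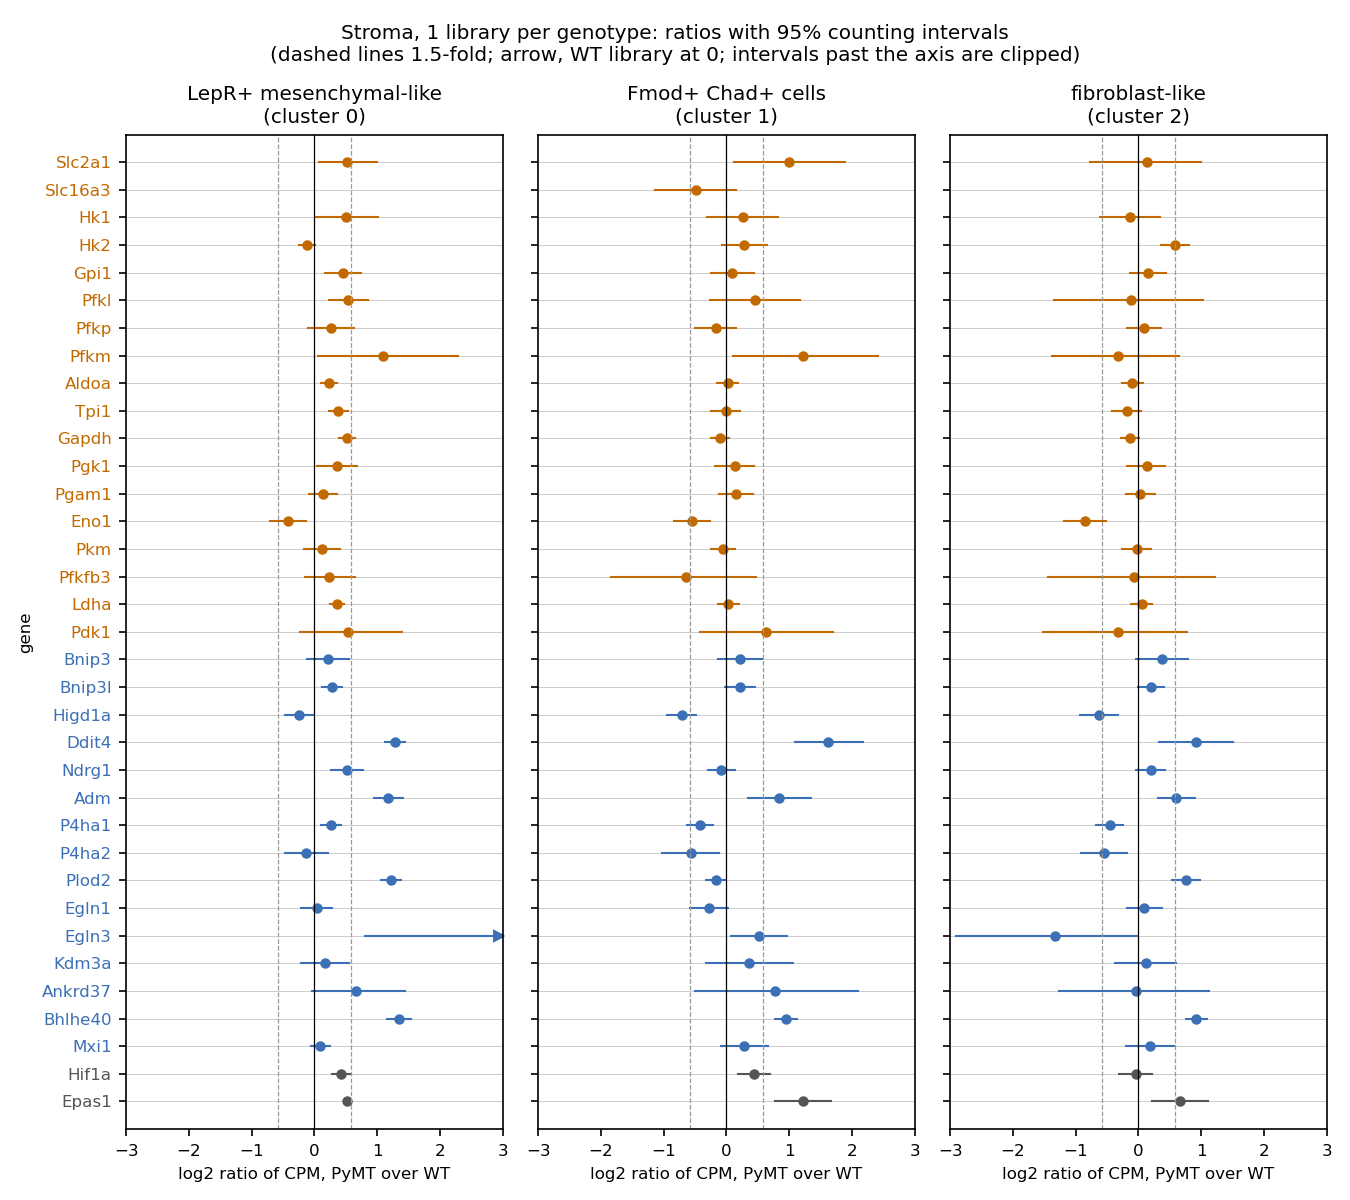
Log2 ratio of CPM, PyMT over WT, for the 35 genes in 3 stromal clusters, with 95% counting intervals as bars and 1.5-fold as dashed lines (orange glycolysis, blue other HIF targets, grey HIF alpha subunits). Bhlhe40 and Ddit4 lie right of 0 in all 3 panels, Eno1 left of 0 in all 3, and P4ha1 changes side, from 0.26 in LepR+ cells to -0.43 and -0.46 in the others.

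Sums of immediate-early genes and of other marker genes moved with genotype in these libraries. With 1 library per genotype, cell handling and a response in the animal cannot be told apart. The summed level of 14 immediate-early and dissociation genes was 29924 CPM in WT and 54522 CPM in PyMT LepR+ cells, 11175 and 24498 CPM in the Fmod+ Chad+ cells, and 13772 and 27730 CPM in the fibroblast-like cells. Among cells at or below the WT median of this share (489 WT and 535 PyMT LepR+ cells, an alternative chosen after seeing the data) the log2 ratio was 1.34 for Bhlhe40, 1.28 for Adm, 1.12 for Plod2 and 1.01 for Ddit4 in LepR+ cells. In the other 2 clusters this left 78 and 69 PyMT cells, and the Bhlhe40 ratio was 0.35 (-0.06 to 0.74) and 0.61 (0.23 to 0.97). The Ddit4 ratio of fibroblast-like cells became -0.10 (-1.86 to 1.35) there. The summed level of 7 erythroid genes was 371 CPM in WT and 86.6 CPM in PyMT LepR+ cells. That of 8 osteolineage genes was 6930.4 and 4161 CPM, and that of 7 pericyte genes 213 and 362 CPM. The part of these sums in the results was not tested.

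Levels of the members also differed between the 6 clusters with at least 50 cells in each library; these are descriptions, since the clusters were made from the same cells. Epas1 was high in Cd36+ Podxl+ endothelial-like cells (1140 CPM in WT and 950.5 CPM in PyMT), in LepR+ cells (724 and 1041 CPM) and in sinusoidal endothelial-like cells (486 and 639.8 CPM), and at most 70.2 CPM in the other 3 clusters. The first of these led in the WT library and the second in the PyMT library. The endothelial-like levels of WT cells rest on 133 and 82 UMIs. Hif1a was highest in sinusoidal endothelial-like cells (320.1 and 329 CPM) and between 70.4 and 165 CPM in the others. Plod2 was highest in osteolineage-like cells (643 and 570.0 CPM). Egln3 reached 36.1 and 51.8 CPM in the Fmod+ Chad+ cells, and at most 7.29 CPM in the fibroblast-like cells and 1.91 CPM in LepR+ cells, with 0 UMIs in the other 3 clusters. Gapdh varied less, from 178 to 419 CPM over all clusters and both libraries.

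**Figure D3:**
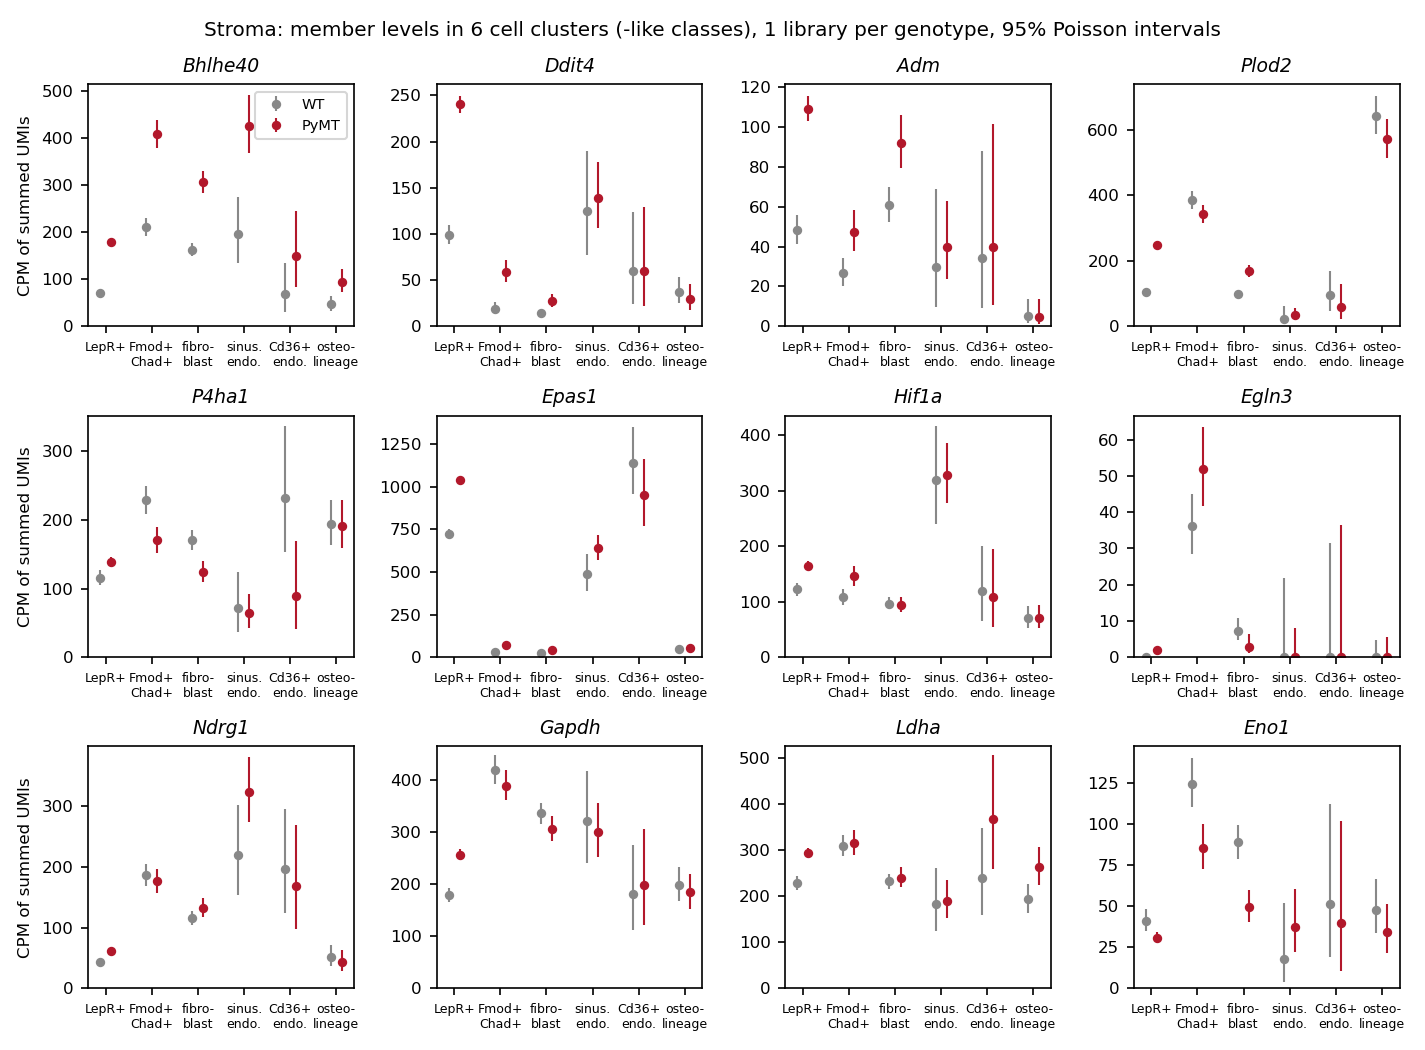
CPM of summed UMIs for 12 of the genes in 6 stromal clusters of the WT (grey) and PyMT (red) library, with 95% Poisson intervals. Epas1 is high in LepR+ and both endothelial-like clusters and Egln3 in the Fmod+ Chad+ cells (36.1 and 51.8 CPM), and the PyMT value of Bhlhe40 is above the WT value in all 6 clusters.

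In HSPC, summed per mouse, 2 of the 33 genes were higher in the 2 PyMT mice and 1 was lower (edgeR, adjusted p under 0.05), beside 0.85% of 11759 genes higher and 0.553% lower. The 33 genes listed all passed the filter. Eno1 measured 437 and 484 CPM in WT mice 1 and 2 and 696.5 and 696.3 CPM in PyMT mice 1 and 2. The PyMT mice agreed closely and were both above the WT mice (1.51-fold, log2 0.60 ± 0.10 SE, edgeR adjusted p = 0.0375). Bhlhe40 measured 2.56 and 2.77 CPM in the WT and 5.54 and 6.74 CPM in the PyMT mice, also separate, at a low level (log2 1.21 ± 0.22 SE, edgeR adjusted p = 0.0416). Ndrg1 measured 83.1 and 86.8 CPM in the WT and 49.7 and 52.3 CPM in the PyMT mice, and both PyMT mice were below (log2 -0.74 ± 0.09 SE, edgeR adjusted p = 0.0154). Ndrg1 kept its call when any mouse was left out, while Eno1 lost it without WT mouse 1 (edgeR adjusted p = 0.0632), and Eno1 and Bhlhe40 lost it when only library size was scaled (both 0.0701). In such fits the lone mouse of a group is taken to vary like the others, so the number of members called is not compared. Over 9 alternatives, which include these fits, the log2 difference ran from 0.47 to 0.67 for Eno1. It ran from 1.05 to 1.34 for Bhlhe40 and from -0.86 to -0.71 for Ndrg1.

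The remaining core enzymes of HSPC were mostly above 0 but did not pass. Pkm measured 1205 and 1194 CPM in WT against 1638.5 and 1454 CPM in PyMT mice (log2 0.37 ± 0.11 SE, edgeR adjusted p = 0.105), Aldoa 751 and 682 against 887 and 909 CPM (log2 0.33 ± 0.10 SE, edgeR adjusted p = 0.115), and Pfkl 226 and 228 against 274 and 278 CPM (log2 0.28 ± 0.09 SE, edgeR adjusted p = 0.103). For each of these the PyMT mice were both above the WT mice. Gapdh measured 1290 and 1194 against 1639 and 1160 CPM, so PyMT mouse 2 lay below both WT mice. Ldha measured 1326 and 1245 against 2016 and 1444 CPM (log2 0.43 ± 0.16 SE, edgeR adjusted p = 0.163), with PyMT mouse 1 alone far above. Pgk1 was at 57.9 CPM in WT mouse 1 against 100.7 to 129.8 CPM in the other 3 mice. In HSPC the near copies held more than in bulk, Eno1b 4.48 to 13.0 CPM and Pgk1-rs7 1.68 to 4.09 CPM over the mice. The part of these copies in the Eno1 and Pgk1 values was not tested.

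Of the other targets, Ddit4 measured 16.5 and 18.3 CPM in WT against 26.8 and 23.7 CPM in PyMT mice (log2 0.54 ± 0.12 SE, edgeR adjusted p = 0.0633) and Higd1a 301 and 273 against 380.5 and 385 CPM (log2 0.41 ± 0.09 SE, edgeR adjusted p = 0.0656). Both were separate between groups without passing. Kdm3a (20.6 and 19.8 against 15.1 and 17.2 CPM) and Bnip3l (205 and 194 against 155 and 177 CPM) lay lower in both PyMT mice, again without passing. Hif1a was at 21.6 and 23.9 against 24.5 and 21.9 CPM, with overlapping ranges (log2 0.03 ± 0.12 SE, edgeR adjusted p = 0.896). P4ha2, with at most 0.93 CPM, and Plod2, with at most 5.70 CPM, were barely detected in HSPC.

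The medians of the 2 groups stood in the opposite order to the bulk MSC. The median log2 difference was 0.29 over 18 glycolysis genes, 14 of them above 0, and -0.04 over 14 other targets, 6 of them above 0, beside -0.01 over all genes. The glycolysis median was 0.10 without PyMT mouse 1 and 0.16 without WT mouse 2. Glycolysis was above the other targets in 9 of 9 alternatives. The ranges were separate for 21 of the 33 genes (15 higher, 6 lower), but with 2 mice a group that holds for 26.7% of all genes higher and 29.2% lower. None of 62 further pathway genes passed edgeR. At an unadjusted p under 0.05 were 17 of them, beside 2643 of all 11759 genes. DESeq2 called 5 higher and 1 lower of 64, beside 467 higher and 161 lower of 11992 genes.

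**Figure D4:**
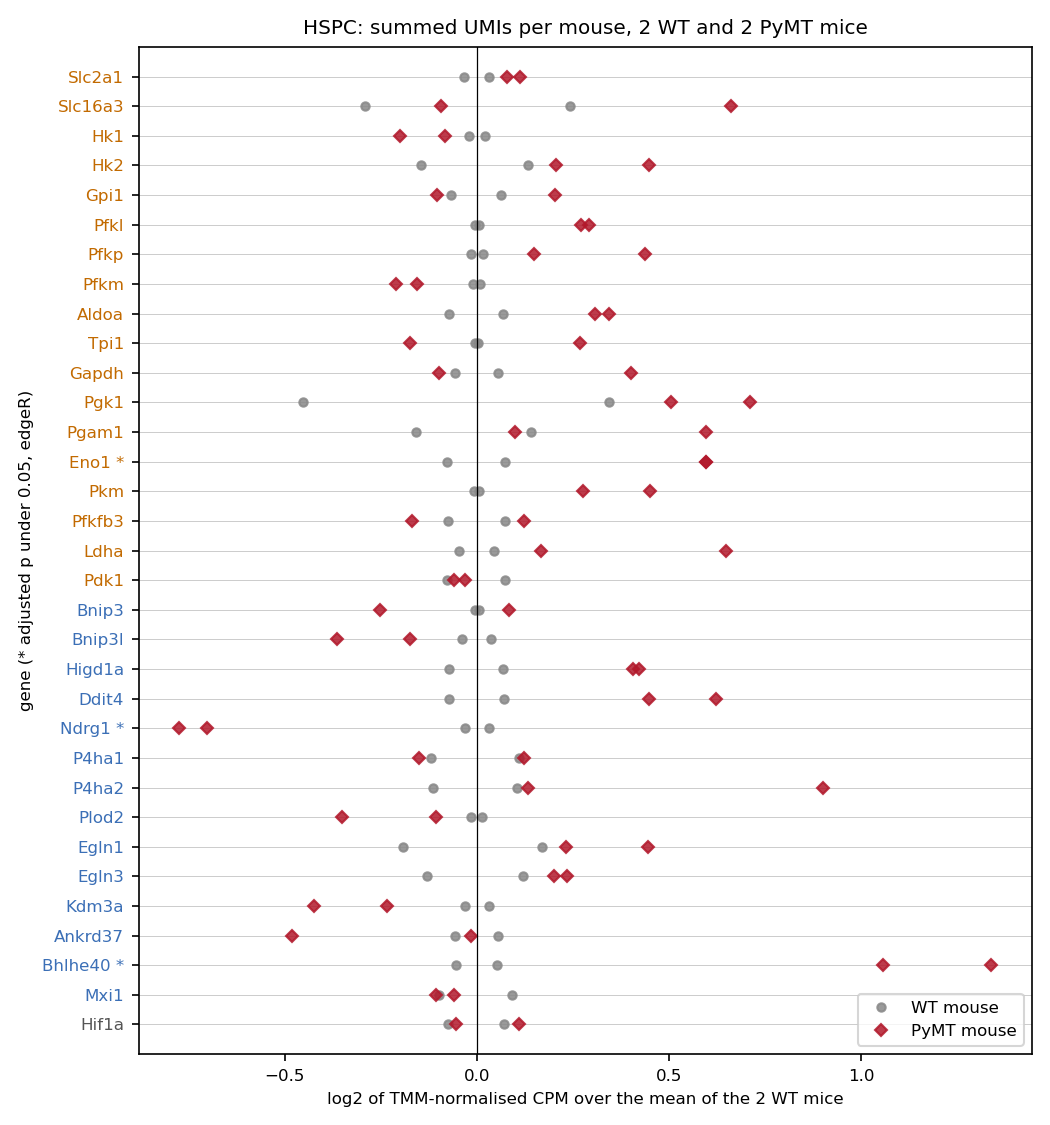
Log2 of CPM over the mean of the 2 WT mice, for 33 genes in 2 WT (grey circles) and 2 PyMT mice (red diamonds), with an asterisk at adjusted p under 0.05. Eno1 and Bhlhe40 lie right of the WT mice in both PyMT mice and Ndrg1 left of them (49.7 and 52.3 against 83.1 and 86.8 CPM), while Gapdh is split.

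Marker sums of HSPC types moved with genotype. The sum of 8 stem cell identity genes was 383 and 440.1 CPM in WT against 204 and 283 CPM in PyMT mice, that of 8 megakaryocyte-erythroid genes 1808 and 2354 against 808 and 1200 CPM, and that of 7 granulocyte-monocyte genes 7088 and 3208 against 10664 and 8021 CPM. The sum of 13 immediate-early and dissociation genes was 1293 and 1679.5 CPM in WT against 1756 and 1865 CPM in PyMT mice. The part of these shifts in the results over all cells was not tested. The HSPC were also clustered without the 35 genes, and 8 clusters had at least 50 cells from every mouse. Within these, Ndrg1 was lower in both PyMT mice than in both WT mice in 7 of 8 clusters, Eno1 higher in 6 of 8, Ddit4 higher in 6 of 8 and Bhlhe40 higher in 4 of 8. For Eno1, Ddit4 and Bhlhe40, 0 of the 8 clusters had both PyMT mice below both WT mice. These genes were named for being called or separate over all cells. Other members separated too, among them Pfkm and Pdk1 (lower in 5 of 8) and Higd1a (higher in 5 of 8). The share of all genes that separate within a cluster was not computed. Over all cells it was 26.7% higher and 29.2% lower. Clusters were also filled unequally, among them 2 of these 8. The Meg3+ Mllt3+ cells were 3.05% and 2.43% of the cells of PyMT mice 1 and 2 against 18.6% and 24.0% in WT mice 1 and 2, and the Tcf19+ Otos+ cells 2.28% and 1.43% against 21.9% and 22.0%. A difference between genotypes within a cluster was not tested.

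The level of some members was highest in 1 cluster of HSPC, again as a description. The Meg3+ Mllt3+ cells (1414 cells) had the highest mean of Bhlhe40 (22.9 CPM, 4.26 to 46.5 over mice, on 10 to 22 UMIs a mouse, against at most 5.52 CPM in the other 7), Hk2 (57.7 against at most 36.4 CPM), Aldoa (1085 against at most 926 CPM) and Bnip3 (56.5 against at most 40.8 CPM). For Bhlhe40 and Bnip3 the lowest mouse in this cluster, at 4.26 and 40.0 CPM, lay below the highest mean of the other clusters. The mean gives each mouse the same weight, and the cells were few in the PyMT mice. PyMT mice 1 and 2 had 110 and 136 cells here and WT mice 1 and 2 had 638 and 530. This cluster also had the highest sum of stem cell identity genes, 1043 CPM. The Pf4+ Itga2b+ cells (1063 cells) led for Ldha, at 2255 CPM against at most 1662 CPM, and the Dntt+ Flt3+ cells (958 cells) for Egln1, at 19.0 against at most 9.37 CPM, and Pdk1, at 117.5 against at most 92.0 CPM.

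Across the cell cycle the members of HSPC changed in both directions. Cells were summed per mouse by the authors' calls, with 139 to 380 cells in S, 435 to 976 in G2/M and 1636 to 4252 in G1, and compared within mice. In S against G1, 10 of 32 tested genes were higher and 11 lower (21.5% and 18.8% of 10757 genes). In G2/M against G1, 2 were higher and 21 lower (25.1% and 27.6%). The median log2 difference in S was 0.02 for glycolysis, -0.21 for other targets and -0.02 for all genes. In G2/M these medians were -0.16, -0.38 and -0.02. The median SE of glycolysis genes was 0.05 in S and 0.04 in G2/M, against 0.10 and 0.07 over all genes, so smaller differences could be called. That of the other targets was 0.12 and 0.08. P4ha2 did not pass the filter on low counts. Cells called S or G2/M had 6622 to 10975 UMIs at the median and G1 cells 3592 to 5962, and the part of that depth in the differences was not tested.

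In S phase 8 of the 13 core enzymes rose and 4 fell, and the 8 included all 6 that act after aldolase (edgeR). Pgam1 rose by 0.29 ± 0.03 SE on the log2 scale, Gapdh by 0.27 ± 0.03 SE, Tpi1 by 0.25 ± 0.04 SE, Eno1 by 0.19 ± 0.03 SE and Pkm by 0.16 ± 0.03 SE, each higher in S in 4 of 4 mice. Gapdh for example went from 1575, 1098, 1214 and 1153 CPM in G1 to 1782, 1317, 1496 and 1478 CPM in S in PyMT mice 1 and 2 and WT mice 1 and 2. Every mouse moved up, while the ranges of the phases over mice overlapped. Ldha rose in S (0.18 ± 0.03 SE) and fell in G2/M (-0.32 ± 0.02 SE). The 4 core enzymes that fell in S were Hk1, Hk2, Pfkl and Aldoa. Aldoa fell the most, from 954, 1015, 863 and 831 CPM in G1 to 859, 769, 614 and 525 CPM in S, and to 607, 573, 471 and 365 CPM in G2/M (log2 -0.42 ± 0.09 and -0.88 ± 0.09 SE). In each mouse the order was G1, S, G2/M from high to low.

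In G2/M 11 of the 18 glycolysis genes fell and 0 rose (edgeR; 0 rose also at an unadjusted p under 0.05 and with DESeq2). Pfkl fell by 0.61 ± 0.04 SE on the log2 scale, Pfkfb3 by 0.505 ± 0.12 SE and Pdk1 by 0.48 ± 0.06 SE. Pdk1 was at 76.6, 79.4, 78.9 and 93.2 CPM in G1 and at 61.4, 58.3, 56.0 and 58.1 CPM in G2/M, so the phases did not overlap. Of 13 other targets 9 fell and 2 rose in G2/M, the latter being Egln3 (log2 0.16 ± 0.07 SE) and Kdm3a (log2 0.23 ± 0.08 SE), and neither was called higher by DESeq2. The number higher in G2/M was 4 without PyMT mouse 1, 1 without PyMT mouse 2 or WT mouse 1, and 0 without WT mouse 2.

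The stress genes were highest in G1. Bhlhe40 was at 6.82, 8.49, 3.39 and 3.37 CPM in G1, at 2.71, 2.75, 0.832 and 1.46 CPM in S and at 2.66, 2.73, 0.976 and 1.67 CPM in G2/M (PyMT mice 1 and 2, WT mice 1 and 2). It fell in every mouse (log2 -1.51 ± 0.29 and -1.48 ± 0.19 SE, edgeR adjusted p = 3.42e-05 and 2.23e-08). Ddit4 was at 29.9, 27.1, 18.7 and 20.3 CPM in G1, at 12.5, 13.8, 6.24 and 12.4 CPM in S and at 21.3, 15.6, 13.5 and 14.8 CPM in G2/M. It was lower in S than in G2/M in each of the 4 mice (log2 -1.14 ± 0.14 and -0.56 ± 0.09 SE against G1). Hif1a fell in both phases (log2 -0.41 ± 0.12 and -0.48 ± 0.08 SE). With only the cells called G1, Eno1, Bhlhe40 and Ndrg1 stayed called between genotypes, and Ddit4 was called too (edgeR adjusted p = 0.0492).

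**Figure D5:**
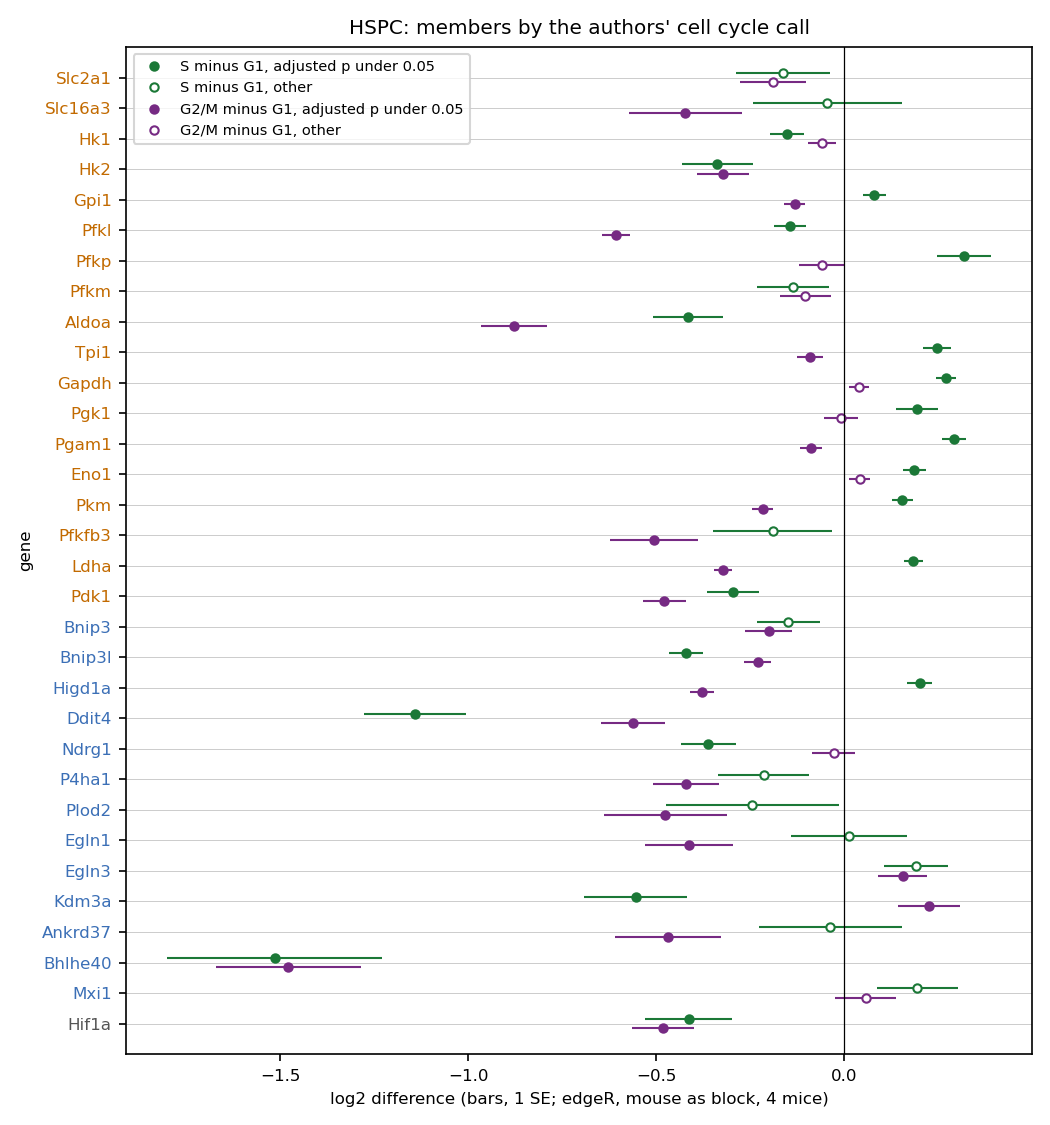
Log2 difference of 32 genes between cells called S (green) or G2/M (purple) and cells called G1, with bars of 1 SE and filled points at adjusted p under 0.05 (edgeR, 4 mice as blocks). The 6 core enzymes that act after aldolase lie right of 0 in S, 11 glycolysis genes are filled left of 0 in G2/M, and Bhlhe40 is near -1.5 in both.

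Some members can be set side by side over the 3 data sets. Bhlhe40 was higher in Py230 than in tumour-free bulk MSC (log2 1.003). It was also higher in PyMT than in WT LepR+ cells (1.34), Fmod+ Chad+ and fibroblast-like cells (0.95 and 0.92) and HSPC (1.21). The stromal values rest on 1 library per genotype. In Fmod+ Chad+ and fibroblast-like cells with few immediate-early UMIs the Bhlhe40 ratio was smaller, as given above. Ddit4 was at 1.09 in bulk MSC, 1.28 in LepR+ cells and 0.54 in HSPC, the last not past the threshold. Eno1 was at 0.04 in bulk MSC, -0.43 in LepR+ cells and 0.60 in HSPC, and Ndrg1 at 0.39, 0.52 and -0.74. These values come from different tumour models and assays, and the differences between them were not tested.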

How the data were processed

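Bulk RNA-seq counts came from 8 libraries, made with a strand-marking total RNA kit for small inputs, and single-cell UMI counts from 2 stromal and 4 HSPC droplet libraries. The submitters' processing notes name Trim Galore, STAR 2.5.3a, Cell Ranger 6.0.0 and build mm10. No source used here names the read counter or its strand setting. The deposited tables hold raw counts per gene, per library or per cell. Mitochondrial shares were deposited as a fraction for stroma and as a percent for HSPC. Unmatched columns numbered 0.

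The genes and lists were chosen with earlier results of these data known. All members are named, and of the other pathway genes those that passed the bulk or the HSPC genotype test, except 1 that is not reported here. Bulk counts and HSPC sums per mouse were fitted over all genes with edgeR 4.0.16 (R 4.3.3; TMM, filterByExpr, robust quasi-likelihood, Benjamini-Hochberg adjustment, threshold 0.05). Phases, which are the authors' deposited calls, were fitted with the mouse as block, since each mouse gives all 3 phases. CPM of single genes are TMM-normalised in bulk and HSPC sums, and plain for stroma, clusters and marker sums. A filter of 500 or more detected genes and less than 10% mitochondrial UMIs left 2190 of 2508 WT stromal cells and 3191 of 3563 PyMT ones. The 2 stromal libraries shared 2 barcodes and pairs of HSPC libraries 8 to 23. Clusters are the authors' for stroma, with ratios where each library had at least 100 cells, and computed here for HSPC (scanpy 1.11.5, leidenalg 0.10.2; 2000 genes, 30 components, 20 neighbours, resolution 0.6, without the members). Doublets were not called. DESeq2 1.42.0 and the settings of the closing section were alternatives. When tested on simulated data, the share of false calls was above the threshold for the bulk and HSPC mouse fits and below it for the phase fit, so calls near the threshold are less certain than their adjusted p states. Lengths and positions come from GENCODE (GRCm38), promoters from RefSeq.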

Additional observations from a re-analysis of the deposited data

Results flagged for a closer look

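Among 70 groups of 4 bulk libraries (35 genes in 2 groups), 3 had a library apart from the other 3, where chance alone gives about 1 group in 20. Bnip3 in Py230 replicate 1 was at 81.3 CPM, against 25.8 to 31.3 CPM in the other 3. Bnip3l in the same library was at 73.5 CPM, against 63.1 to 64.7 CPM. Epas1 in tumour-free replicate 2 was at 2114 CPM, against 1902.5 to 1937 CPM.

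In the stroma, 3 genes had counting intervals on opposite sides of 0 in different clusters, PyMT over WT. The differences between clusters were not tested, and each genotype is 1 library. P4ha1 was at 0.259 (log2) in LepR+ cells, -0.425 in the Fmod+ Chad+ cells and -0.457 in the fibroblast-like cells. Plod2 was at 1.22 in LepR+ cells and 0.752 in the fibroblast-like cells, and at -0.169 in the Fmod+ Chad+ cells. Egln3 was at 0.52 in the Fmod+ Chad+ cells (79 and 93 UMIs) and at -1.33 in the fibroblast-like cells (24 and 6 UMIs).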

How the results depend on the processing

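Bulk: the 8 members called higher became 11 with DESeq2 (and 1 lower, Ldha), and 3 without the 2 libraries with the fewest detected genes. The median of all genes was 0.04 over 16317 genes with edgeR. It was 0.14 over 44486 genes with DESeq2, which was run without the filter on low counts, so these 2 medians cover different genes. Over the 35 members the median was 0.35 with edgeR and 0.33 with DESeq2. Leaving out single libraries gave 3 to 10 higher and 0 to 1 lower, while 134 to 304 of all genes were called higher. Libraries of the same number did not deviate together over all genes (correlations -0.36, -0.142, -0.18 and 0.00635). Of the libraries, 0 correlated best with their own number. The labels state no pairing and the main fit used none, but such correlations cannot exclude a pairing that touches only some genes. With the replicate number as a replicate block 6 members were called higher and 0 lower, and 176 genes higher and 237 lower instead of 324 and 447.

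HSPC by mouse: library size alone gave 0 higher and moved the medians to 0.17 (glycolysis) and -0.16 (other targets), and that of all genes to -0.14; DESeq2 gave 7 higher. Over all genes, library size alone called 13 higher and DESeq2 467 higher, instead of 100. Leaving out single mice gave a glycolysis median of 0.10 to 0.28 and a median of the other targets of -0.10 to 0.06. Ndrg1 stayed called in all 9 alternatives. By phase, without the replicate block of mice S against G1 gave 0 higher and 3 lower, and G2/M against G1 0 higher and 8 lower; in G2/M DESeq2 gave 0 higher and no filter 4 higher. Leaving out single mice gave 9 to 11 higher and 9 to 11 lower in S with a glycolysis median of -0.0154 to 0.10, and 0 to 4 higher and 17 to 19 lower in G2/M with medians of -0.17 to -0.11 (glycolysis) and -0.40 to -0.29 (other targets).

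Stroma: at 2-fold 3 and 0 members were past the fold (higher, lower) in the Fmod+ Chad+ cells, and 0 and 1 in the fibroblast-like cells. Thinning to 1500 UMIs left 1 lower in the Fmod+ Chad+ cells, and cells with few immediate-early UMIs gave 5 and 5. In such fibroblast-like cells Ddit4 turned from 0.92 to -0.10 and Epas1 from 0.67 to -0.61. In LepR+ cells 6 to 8 were higher and 0 lower in every alternative. Except by construction (fewer cells or a larger fold), the cause of these changes was not tested. Members not called changed sign in 12 bulk and 21 HSPC values, where the values of all members, called or not, number 490 and 297. The comparisons rest on 1 stromal library per genotype and 2 HSPC mice per group.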
